A study of Mus musculus with 6 samples.

Results

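Oligodendrocytes and astrocytes are the macroglia of the brain, and 30 genes that mark them were examined here in a methylation study of fibroblasts turned into neurons. Members were taken by gene symbol, 15 for oligodendrocytes (Mobp, Mbp, Mog, Mag, Cnp, Sox10, Olig1, Olig2, Myrf, Ermn, Opalin, Mal, Cldn11, Ugt8a, Aspa) and 15 for astrocytes (Gfap, Aqp4, Aldh1l1, Slc1a2, Slc1a3, Fabp7, Gja1, Gjb6, S100b, Aldoc, Sox9, Glul, Nfia, Nfib, Slc4a4), of 26216 genes with a curated RefSeq transcript. Methylated DNA immunoprecipitation sequencing (MeDIP-seq), in which an antibody pulls down methylated DNA before sequencing, gave 1 library for each of 6 groups of ICR mouse cells. The groups were induced neurons at 1, 3, 5 and 7 dpi, all derived from mouse embryonic fibroblasts (MEF), hippocampal primary neurons taken from 1-day-old pups, and MEF themselves from E13.5 embryos. Primary neurons were the positive control of the study and MEF the negative one. The labels give 3 to 5 passages for all groups. The sources used here give neither the inducing agent nor what dpi stands for, and library depth was not analysed here.

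Oligodendrocytes wrap axons in myelin. Sox10, Olig1, Olig2 and Myrf are transcription factors of their lineage, Mbp, Mobp, Mag, Mog, Cnp, Mal, Opalin and Cldn11 encode proteins of myelin or its membranes, and Ugt8a makes a myelin lipid. Astrocytes take up glutamate (Slc1a2, Slc1a3), turn it into glutamine (Glul), move water (Aqp4) and couple to each other through connexins (Gja1, Gjb6), while Sox9, Nfia and Nfib take part in their specification. In mammals DNA methylation sits mostly on the C of CG dinucleotides, and loss of methylation at astrocyte genes such as Gfap is a known step when neural precursors start to make glia. Neurons and fibroblasts are not the cells in which most of these genes are used.

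The promoter values come from lists that the authors made for each comparison with MEF, of regions within 2 kb of a start site whose reads differed. A gene outside a list has no value in it. Each list needed at least 10 to 13 reads in the higher library, depending on the comparison and direction, and the median region had 12 to 15 reads, so most values rest on few reads. With 1 library per group no difference has a replicate check, and no p-value across conditions was computed. In 24 of the 28 entries of the 30 genes the lower library had 0 reads, for which a floor of 3 reads was used. The same was true of 79.7% to 97.2% of all regions, depending on the list. Folds against the floor are bounds that leave out the counting error of the higher library, and intervals are exact Clopper-Pearson 95% intervals that cover counting error only. In a culture of mixed cells, a change in the share of cells that carry a methylated copy and a change in all cells cannot be told apart. The DNA libraries do not measure how many glial cells a culture held.

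The start sites of 3 members lie inside or beside listed regions, and their promoter sequences are shown because the results below turn on them. Sequences are from RefSeq (GRCm38.p6, the same build as mm10) and cover 250 bases before to 50 bases after the start, 5′ to 3′ on the strand of the gene, with CG dinucleotides in capitals. The Mobp promoter (chr9:120149492-120149791, plus strand) holds 5 CG, the Nfia promoter (chr4:97581693-97581992, plus strand) 2 CG, and the Gjb6 promoter (chr14:57133562-57133861, minus strand) 6 CG.
Mobp: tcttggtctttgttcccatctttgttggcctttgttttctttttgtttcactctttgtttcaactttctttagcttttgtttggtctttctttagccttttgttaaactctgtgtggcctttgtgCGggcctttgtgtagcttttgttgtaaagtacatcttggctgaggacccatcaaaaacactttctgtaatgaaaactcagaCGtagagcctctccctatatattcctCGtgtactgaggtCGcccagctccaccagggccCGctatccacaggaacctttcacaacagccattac
Nfia: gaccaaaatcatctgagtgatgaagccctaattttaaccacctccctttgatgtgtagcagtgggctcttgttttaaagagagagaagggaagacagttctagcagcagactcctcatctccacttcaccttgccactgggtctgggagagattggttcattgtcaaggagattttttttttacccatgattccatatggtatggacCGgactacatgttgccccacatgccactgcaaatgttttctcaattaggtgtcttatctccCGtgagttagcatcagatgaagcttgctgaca
Gjb6: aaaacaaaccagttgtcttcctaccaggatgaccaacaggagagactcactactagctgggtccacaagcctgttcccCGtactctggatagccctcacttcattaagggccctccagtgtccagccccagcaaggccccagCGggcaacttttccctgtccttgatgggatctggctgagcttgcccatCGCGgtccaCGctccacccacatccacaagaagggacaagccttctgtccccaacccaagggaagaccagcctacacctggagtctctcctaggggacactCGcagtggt

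Of the 30 genes, 10 were listed higher than MEF in primary neurons, the comparison whose lists are the longest, against 20.4% of all genes. In each set of induced neurons 0 to 3 were listed higher, against 1.77% to 12.4% of all genes. Listed lower were 3 genes in primary neurons, 2, 3 and 2 at 1, 3 and 5 dpi and 0 at 7 dpi, at most 13.3% of either lineage, against 8.87% to 15.3% of all genes. In any table, 13 of the 30 had a region, 7 oligodendrocyte and 6 astrocyte genes. The share of all genes over the pooled lists was not computed, so these pooled counts have no background beside them. All 13 were listed higher in at least 1 comparison, and 3 of them (Mobp, Mbp and Nfia) were also listed lower. The other 17 had none: Mog, Cnp, Olig1, Myrf, Ermn, Opalin, Mal and Cldn11 of the oligodendrocyte genes, and Aqp4, Slc1a2, Slc1a3, S100b, Aldoc, Sox9, Glul, Nfib and Slc4a4 of the astrocyte genes.

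At 1 dpi, 1 of 15 oligodendrocyte genes (Mobp) and 1 of 15 astrocyte genes (Nfia) were listed lower, against 10.6% of all genes, and 0 of either list higher, against 1.77%. At 3 dpi the lower list held 2 oligodendrocyte genes (Mobp and Mbp) and 1 astrocyte gene (Nfia), against 13.2% of all genes, and the higher list Ugt8a and Aldh1l1, 1 of each, against 5.23%. At 5 dpi Mobp and Nfia were again the members listed lower (10.7% of all genes), and 0 members were listed higher (3.85%). A single gene is 6.67% of its list, and 2 genes are 13.3%.

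At 7 dpi the astrocyte genes Fabp7, Gfap and Gjb6 were listed higher, 3 of 15 or 20%, against 12.4% of all genes, while 0 oligodendrocyte genes were. In the lower list at 7 dpi, 0 of the 30 genes appeared, against 8.87% of all genes. In primary neurons 6 of 15 oligodendrocyte genes (40%: Aspa, Mag, Mbp, Mobp, Olig2 and Sox10) and 4 of 15 astrocyte genes (26.7%: Aldh1l1, Gja1, Gjb6 and Nfia) were listed higher, against 20.4% of all genes. The lower list of primary neurons held Mobp and Mbp, 2 of 15, and Nfia, 1 of 15, against 15.3% of all genes. The 5 comparisons share the MEF library, so a window that was high in MEF can enter several lower lists with the same MEF reads. No list was tested against other genes.

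**Figure D1:**
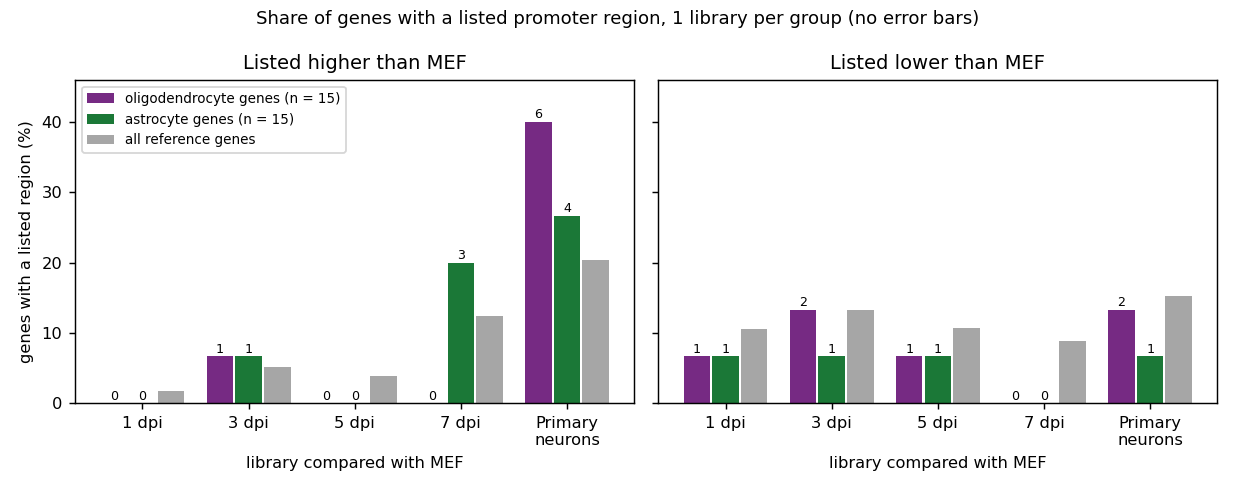
Percentage of genes with a promoter region listed higher (left) or lower (right) than MEF in each comparison, for the 15 oligodendrocyte genes, the 15 astrocyte genes and all 26216 reference genes; numbers on bars are genes. The highest bar is that of oligodendrocyte genes listed higher in primary neurons, 6 of 15 genes or 40% against 20.4% of all genes.

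**Figure D2:**
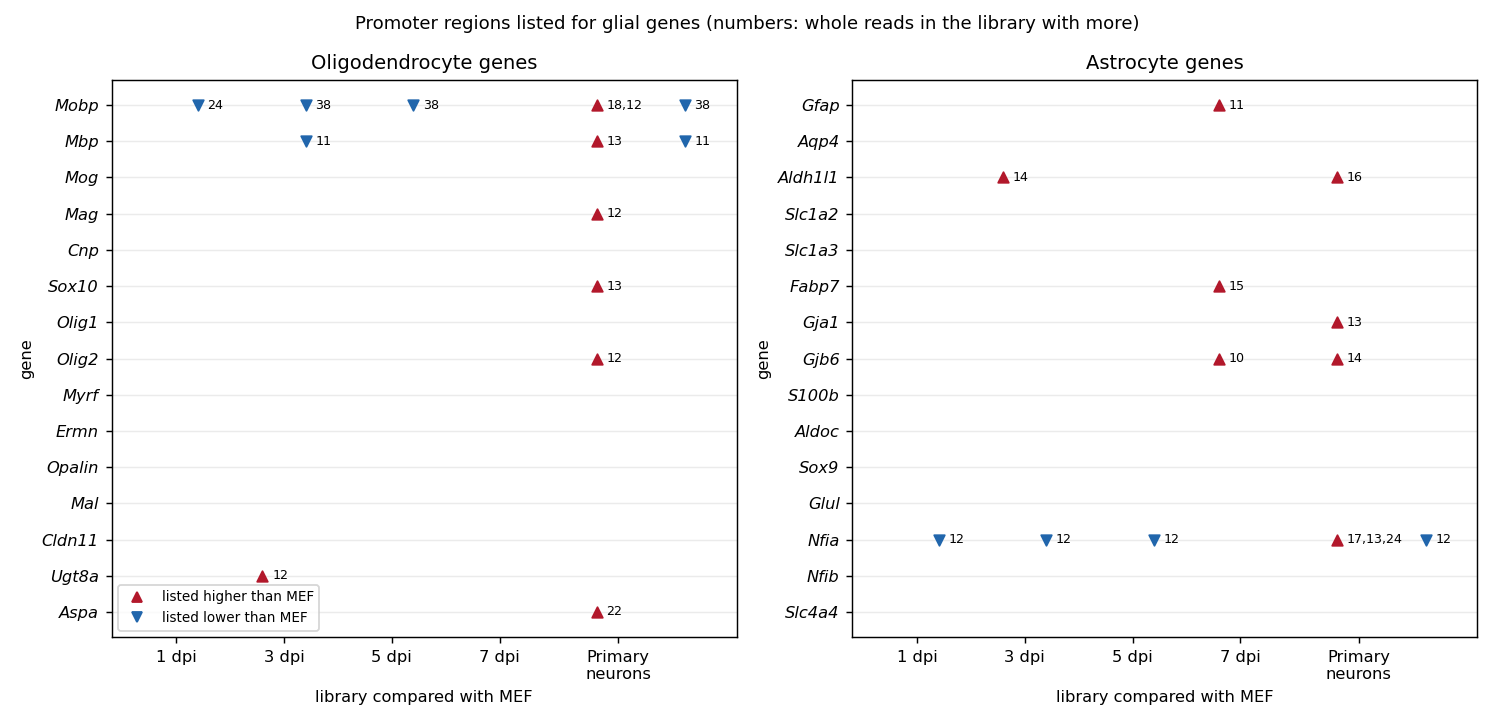
Members (rows) with a region listed higher (red, up) or lower (blue, down) than MEF, by comparison; numbers are whole reads in the library with more. Blue points recur for Mobp and Nfia in the 1, 3 and 5 dpi and primary neuron columns, and red points are densest in the column of primary neurons.

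Mobp, which encodes a basic protein of myelin, had the promoter region with the most reads among the members. It was also the longest, up to 620 bp, while regions of the other members had at most 380 bp. Reads, ranks and folds below were not corrected for region length. A region over its start site was covered in MEF and nearly empty in the early induced neurons and in primary neurons. At 1 dpi it held 3 reads, against 24 in MEF (chr9:120149521-120149900, 380 bp, centred at -31 from the start). The 8-fold lower value has a counting interval of 2.43 to 41.5. At 3 dpi the region was longer (chr9:120149261-120149880, 620 bp) and held 0 reads, against 38 in MEF, at least 12.7-fold lower. At 5 dpi it held 2 reads, against 38 in MEF, 19-fold lower with an interval of 4.91 to 163 (chr9:120149341-120149900). In primary neurons it held 0 reads, against 38 in MEF, at least 13.6-fold lower on the scaled values (chr9:120149321-120149900). These 4 libraries were at 3 reads or fewer, and the 38 reads of MEF have a Poisson interval of 26.9 to 52.2. Ranked by MEF reads, it stood at place 67 of 2990 lower regions at 1 dpi and at places 8 of 3777 and 7 of 3018 in the 3 and 5 dpi lists. In the list of primary neurons it was number 12 of 4461. In the authors' deposited table the q-value of this region was 2.43e-09 for primary neurons, and for induced neurons it was 0.00186 (1 dpi), 2.34e-08 (3 dpi) and 1.46e-06 (5 dpi).

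The whole Mobp promoter printed above, with its 5 CG, lies in the regions of 3 dpi, 5 dpi and primary neurons, and 271 of its 300 bases, again with all 5 CG, in that of 1 dpi. Of all RefSeq promoters of this length, 62.0% hold at least 5 CG. Next to the start-site region, primary neurons had 2 regions with more reads than MEF. The nearer one (chr9:120149121-120149340, centred at -511) held 12 reads, against 0 in MEF, at least 3.73-fold higher, and shares its last 20 bases with the lower region of the same comparison. The farther one (chr9:120148001-120148300, centred at -1591) held 18 reads, against 1 in MEF, 16.8-fold higher with an interval of 2.65 to 699.9. Primary neurons were therefore higher than MEF upstream of Mobp and lower across its start. No Mobp region was listed at 7 dpi. Against 38 reads in MEF, up to 7 reads at 7 dpi would have met a p of 0.0001 had the same bases formed a region, which the tables do not show.

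Mbp, the gene of myelin basic protein, has a distant upstream start site, used for the longer golli transcripts, and a downstream one from which the classic myelin protein is made. Its regions differed between the 2 start sites. Upstream of the first one, 0 reads were found at 3 dpi, against 11 in MEF (chr18:82474061-82474260, centred at -962), and 0 in primary neurons, against 11 in MEF (chr18:82474021-82474400, centred at -912). These are at least 3.67-fold and 3.93-fold lower. Upstream of the downstream start site, within the gene, primary neurons held 13 reads, against 0 in MEF (chr18:82553561-82553780, centred at -792), at least 4.04-fold higher. The higher and the lower region of primary neurons are 79160 bases apart. All of these values lie at or just above the smallest count that the lists hold, 11 reads for lower regions and 12 for higher ones.

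The other oligodendrocyte genes listed in primary neurons had 0 reads in MEF. Aspa, which encodes the enzyme that splits N-acetylaspartate, had 22 reads, against 0 in MEF, at least 6.84-fold higher and the most among higher oligodendrocyte regions (chr11:73325641-73326020). That region is centred at -1193 from the listed start site but lies inside the Aspa gene of RefSeq, which starts farther upstream. The lineage factor Sox10 had 13 reads, against 0 in MEF (chr15:79164921-79165300, centred at -620), at least 4.04-fold higher. Olig2, a basic helix-loop-helix factor that specifies oligodendrocytes and motor neurons, had 12 reads, against 0 in MEF (chr16:91224381-91224660, centred at -1029). Mag, a myelin adhesion molecule, also had 12 reads, against 0 in MEF (chr7:30916341-30916620, centred at -1648), and both are at least 3.73-fold higher. These 3 regions lie upstream of the gene and inside no RefSeq gene. Ugt8a was listed at 3 dpi alone, with 12 reads, against 0 in MEF (chr3:125940361-125940560, centred at -1910), at least 4-fold higher.

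Nfia, a transcription factor that promotes the switch of neural precursors to glia, was the astrocyte gene listed most often. A region upstream of its start site (chr4:97581301-97581680, centred at -452) held 0 reads in the 3 dpi, the 5 dpi and the primary neuron library, against 12 in MEF each time. At 1 dpi the region was shorter (240 bp, the same first base) and held 0 reads, against the same 12 in MEF. The 12 reads have a Poisson interval of 6.2 to 21.0, and the bound is at least 4-fold lower, or 4.29-fold on the scaled values of primary neurons. In the lower list of 7 dpi a region needed 13 reads in MEF, so this window could not have entered it whatever its reads at 7 dpi. The same holds for the 11 reads of Mbp.

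Around that window primary neurons had 3 Nfia regions with more reads than MEF. The first (chr4:97580861-97581240, centred at -892) ends 60 bases before the lower one and held 17 reads, against 0 in MEF, at least 5.29-fold higher. The second (chr4:97582101-97582320, centred at 268) held 13 reads, against 0 in MEF. The third (chr4:97583061-97583440, centred at 1308) held 24 reads, against 2 in MEF, 11.2-fold higher with an interval of 2.78 to 97.8. Primary neurons thus showed more reads than MEF on both sides of a window in which they had none. The promoter sequence printed above, with 2 CG, is that of the listed start site within the gene. It begins 12 bases after the lower window and ends 108 bases before the second higher one, so the listed regions flank it. All Nfia regions also overlap E130114P18Rik, and reads of the 2 genes cannot be separated.

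**Figure D3:**
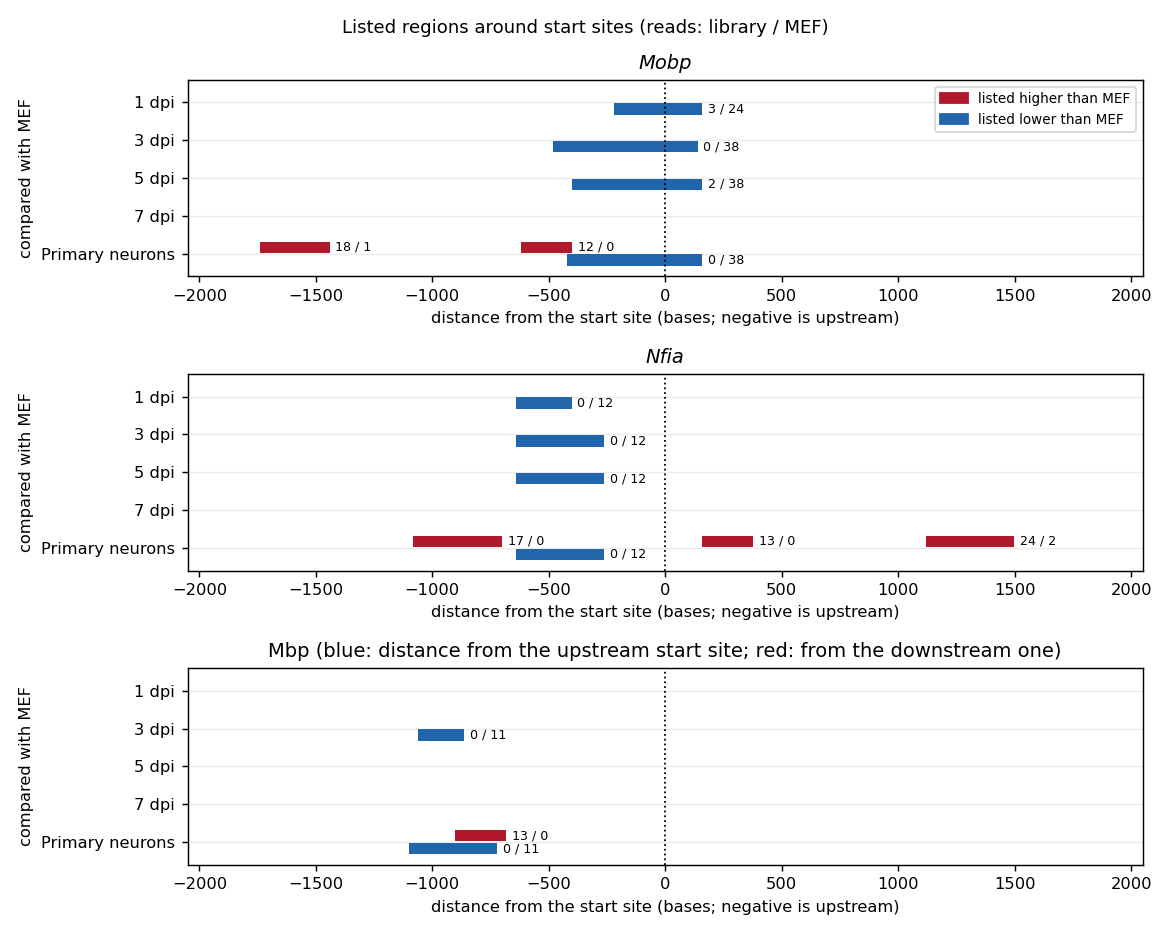
Regions listed higher (red) or lower (blue) than MEF for Mobp, Nfia and Mbp, by distance in bases from the start site and by comparison; numbers are whole reads in the library and in MEF. In Mobp the blue bars cover the start site with 0 to 3 reads against 24 or 38, and in primary neurons red bars lie upstream of the blue one in Mobp and on both sides of it in Nfia.

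The other 5 astrocyte genes with a listed region (Aldh1l1, Gjb6, Gja1, Fabp7 and Gfap) were in the higher lists, with 0 reads in MEF. Aldh1l1, a folate enzyme used as an astrocyte marker, was listed over the same bases in 2 libraries. It held 14 reads at 3 dpi (chr6:90552201-90552420, centred at 1463 within the gene), against 0 in MEF, and 16 reads in primary neurons, against 0 in MEF, at least 4.67-fold and 4.98-fold higher. The connexin gene Gjb6 had different regions in 2 comparisons. At 7 dpi it was upstream (chr14:57135361-57135640, centred at -1889) with 10 reads, against 0 in MEF. In primary neurons it lay over the start site (chr14:57133321-57133700, centred at 101) with 14 reads, against 0 in MEF, at least 4.36-fold higher, and covers 139 bases of the printed promoter with 4 of its 6 CG. Gja1, the main astrocyte connexin gene, which fibroblasts also use, had 13 reads in primary neurons, against 0 in MEF (chr10:56376781-56376980, centred at -419).

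At 7 dpi the gene of the radial glia fatty acid binding protein, Fabp7, had 15 reads, against 0 in MEF (chr10:57785621-57786000, centred at 888 within the gene), at least 6.67-fold higher. Gfap, the intermediate filament of astrocytes, had 11 reads, against 0 in MEF (chr11:102895841-102896160, centred at 1200 within the gene), at least 4.89-fold higher. The 10 reads of Gjb6 at this time are the smallest count in the list. With the authors' scaling, 10 reads were enough to be listed higher at 7 dpi, against 13 MEF reads to be listed lower.

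Over all members, 17 of the 28 entries lay within 2 reads of the smallest count in their list, against 57.9% of all listed regions. All 10 lower entries were centred upstream of the listed start site, but they are 3 windows of the same MEF library that return in several comparisons. Of the 18 higher entries, 11 were centred upstream and 7 downstream, and 10 were more than 1000 bases from the start, against 54.5% of all higher regions. None of the 28 entries was shared with a region of another listed gene, and 0 were overlapped by a peak of any library. The same shares of all listed regions were not computed.

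RefSeq promoter sequences were found for 23 of the 30 genes, 27 promoters in all. They had a median of 5 CG in 300 bases, against 7 in all 32851 promoters. No sequence was found for Mbp, Sox10, Olig1, Myrf, Aqp4, Sox9 and Nfib, so the values do not describe the whole list. The median was 5 for oligodendrocyte genes and 4.5 for astrocyte genes. At least 10 CG were found in 6 of the 27, in Ugt8a (40), Olig2 (25), Cldn11 (24), Cnp (17), Glul (17) and 1 promoter of Slc4a4 (50), against 43.5% of all promoters. Of these genes, Ugt8a and Olig2 had a listed region, in both cases centred more than 1000 bases upstream of the start site. Both regions lie outside the 300 bases in which CG were counted, and their own CG number was not examined. Promoters of members with a listed region had a median of 6 CG (13 promoters), and those of members without one 4.5 (14 promoters).

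**Figure D4:**
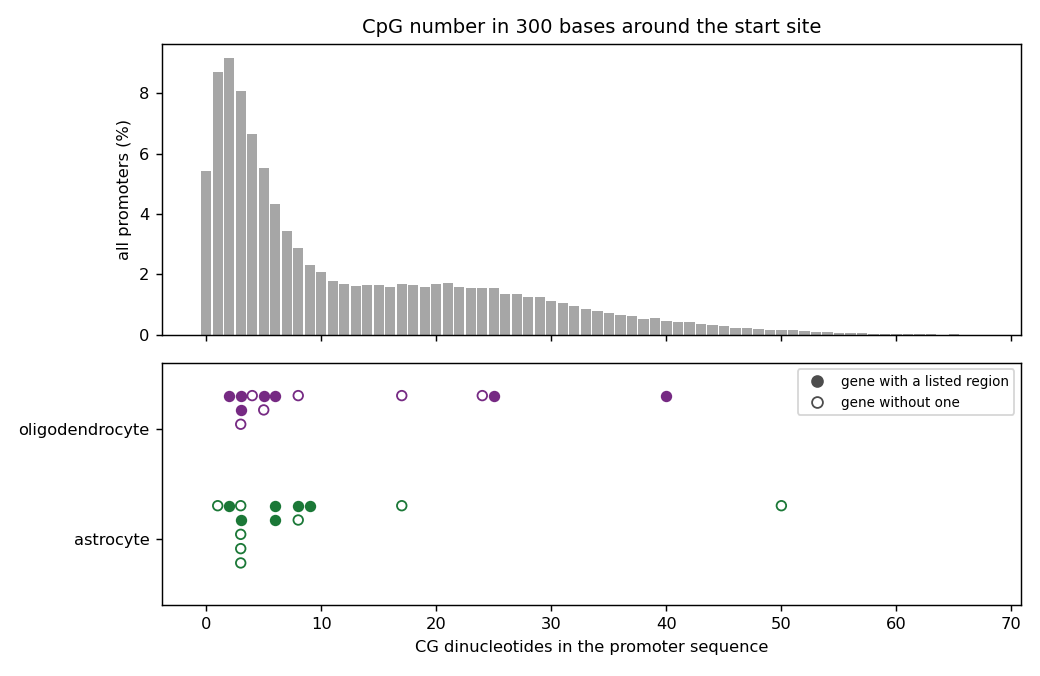
Number of CG dinucleotides in 300 bases around the start site, for all 32851 RefSeq promoters (top, percent) and for the 27 promoters of members (bottom; filled points belong to genes with a listed region). Most member promoters lie at or below 9 CG, and 6 lie at 17 or more.

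Peaks, which the authors called in each library separately, gave a view beyond promoters. They assigned 68 peak entries to 18 of the 30 genes, 9 of the gene body class and 59 intergenic. The share of all genes with a peak in any library was not computed. The promoter class held 0 of the 68 entries, in a class that was rare for all genes: 0.24%, 0.107%, 0.462% and 1.73% of genes at 1, 3, 5 and 7 dpi, 0.622% in primary neurons and 0.195% in MEF. The closest summit was 4480 bases from a start site (Myrf) and the farthest 373323 (Nfia). Among induced neurons, a peak was assigned to 1 oligodendrocyte and 3 astrocyte genes at 1 dpi (5.97% of all genes). The 3 dpi library had 0 oligodendrocyte and 3 astrocyte genes (4.5%), the 5 dpi library 2 and 3 genes (11.1%) and the 7 dpi library 6 and 8 genes (29.2%). Primary neurons had a peak at 3 oligodendrocyte and 7 astrocyte genes (16.8% of all genes), and MEF at 1 oligodendrocyte gene (Mbp) and 3 astrocyte genes (6.9%). The total number of peaks differed too, with 1886, 1447, 3918 and 14091 at 1, 3, 5 and 7 dpi, 6636 in primary neurons and 2165 in MEF, so counts of genes with a peak are not comparable between libraries.

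The 68 entries formed 47 loci by overlap of at least 1 bp, of which 39 were in 1 library alone, 28 of them at 7 dpi. The 7 dpi library also had the most peaks of all genes (14091), and the share of all peaks found in 1 library alone was not computed. Slc1a3, the gene of a glutamate transporter of astrocytes and radial glia, had the one locus found in all 6 libraries. It lies at -16.2 kb from the start site (chr15:8726569-8727481), with 51, 79, 104 and 68 tags at the summit at 1, 3, 5 and 7 dpi, 59 in primary neurons and 43 in MEF. The authors' fold enrichments there were 5.31, 8.52, 10.7, 7.63, 5.56 and 7.93 in that order. RefSeq places it in the gene Gm31340, as it does the next. That second Slc1a3 locus, at -112 kb (chr15:8822219-8822880), had a peak at 3 dpi (44 tags), at 5 dpi (54), in primary neurons (36) and in MEF (44).

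Other shared loci were absent from the peak list of MEF. A locus at -229.5 kb from the listed start site of Nfia (chr4:97351954-97352844), in no RefSeq gene, had 47, 43, 84 and 32 tags at 1, 3, 5 and 7 dpi. It had 27 in primary neurons. A locus assigned to Gja1, 344 kb downstream of its start (chr10:56720726-56721329), had 44, 45 and 38 tags at 1, 3 and 5 dpi and 48 in primary neurons. Mobp had a locus at 24.5 kb (chr9:120173893-120174615) with 42, 61 and 35 tags at 1, 5 and 7 dpi and 39 in primary neurons. The authors classed it as intergenic, while it lies inside the Mobp gene of RefSeq (chr9:120149742-120181488). The remaining loci in 2 libraries were in the gene body of Glul (40 tags at 7 dpi and 40 in primary neurons), in that of Slc1a3 (48 at 5 dpi and 28 at 7 dpi) and at -91.9 kb from Ugt8a (39 at 5 dpi and 38 in primary neurons). A missing peak is not a count of 0, and reads of MEF at these loci were not analysed here.

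**Figure D5:**
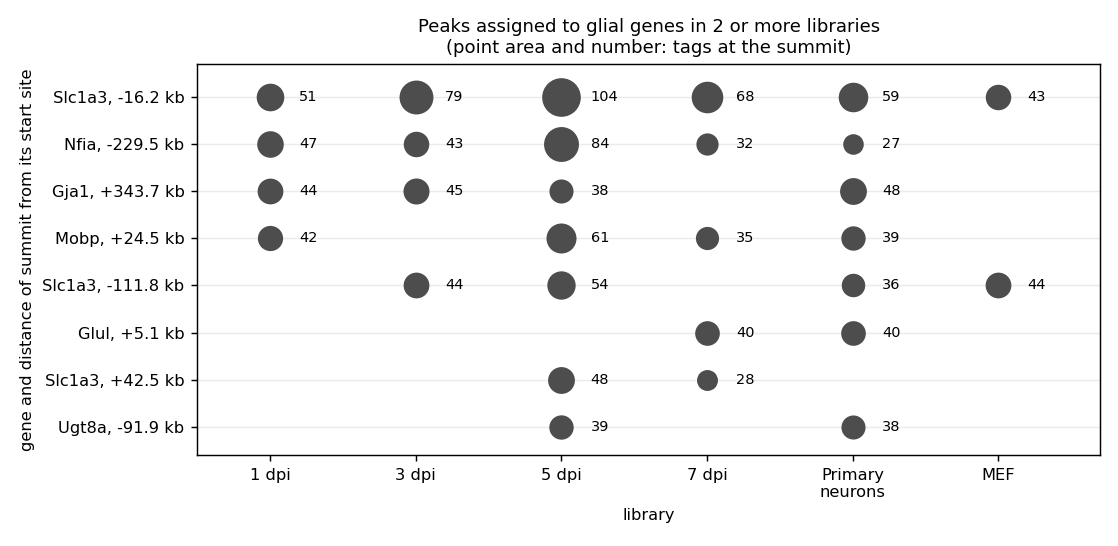
Loci with a peak assigned to a member in 2 or more libraries (rows, with distance of the summit from the start site in kb) in the 6 libraries; point area and number give tags at the summit. One Slc1a3 locus has a peak in all 6 libraries with 43 to 104 tags, and the loci of Nfia, Gja1 and Mobp have a peak in 4 or 5 libraries but not in MEF.

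MEF had peaks of its own in Mbp at -34.1 kb from the downstream start site (34 tags), inside the gene, in the body of Nfia (28 tags) and in that of Slc4a4 (33 tags), a bicarbonate transporter of astrocytes. These 3 loci had a peak in no other library. Members with a peak but no listed promoter region were 12, members with a region but no peak 7, and members with both 6 (Mobp, Mbp, Ugt8a, Nfia, Gja1 and Gjb6). Mog, Cnp, Olig1, Mal and Aldoc had neither. The shares of all genes with these combinations were not computed.

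A further 27 oligodendrocyte and 27 astrocyte genes were counted in the same lists. Of the oligodendrocyte ones, 4, 4, 5 and 2 were listed lower at 1, 3, 5 and 7 dpi, with 4 in primary neurons, and of the astrocyte ones 1, 3, 2 and 2 at these times and 4 in primary neurons. The shares of all genes were 10.6%, 13.2%, 10.7%, 8.87% and 15.3% in the same order. Listed higher were 0, 4, 2 and 5 oligodendrocyte genes at these times and 9 in primary neurons, and 0, 2, 4 and 3 astrocyte genes and 6 in primary neurons. Here the shares of all genes were 1.77%, 5.23%, 3.85%, 12.4% and 20.4%. The highest count of each lineage was thus in the comparison with the longest lists.

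Several of these genes were listed in both directions, as Mobp, Mbp and Nfia were. The share of all genes listed in both directions was not computed. Id3, an inhibitor of helix-loop-helix factors, was lower in every comparison in a region centred at 1449, with 2, 0, 1 and 0 reads at 1, 3, 5 and 7 dpi and 0 in primary neurons, against 16 in MEF. A second Id3 region, centred at 149, held 0 reads at 1, 3 and 5 dpi as well as in primary neurons, against 12 in MEF. Id3 was also listed higher at 3 dpi (11 reads, against 0 in MEF, centred at -1961) and at 7 dpi (10 reads, against 0 in MEF, centred at 319), the last over bases that overlap the second lower region. Atp1b2, a subunit of the glial sodium pump, had 18 reads in primary neurons, against 0 in MEF, in a region centred at -1050. The adjoining region upstream held 0 reads in primary neurons and at 3, 5 and 7 dpi, against 15 in MEF. Hepacam, an adhesion molecule of astrocytes, was higher at 5 dpi (15 reads, against 0 in MEF) and 7 dpi (12 reads, against 0 in MEF), and lower in primary neurons (0 reads, against 13 in MEF). Fgfr3, a growth factor receptor of astrocytes, had 12 reads at 7 dpi, against 0 in MEF, and the secreted chaperone gene Clu 11 reads at 3 dpi, against 0 in MEF.

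Among the further oligodendrocyte genes, Gjc3, a glial connexin, was in the lower list of every comparison, and also in the higher list at 3 dpi, 7 dpi and in primary neurons. At 3 dpi it had 16 reads, against 1 in MEF, in a region centred at 1099, and 0 reads, against 13 in MEF, in the adjoining one centred at 869. Its other higher regions held 10 reads at 7 dpi and 14 in primary neurons, against 0 in MEF. In its other lower regions it had 0 reads, against 11 to 16 in MEF. The higher Gjc3 region of primary neurons (chr5:137964021-137964260) shares bases with the lower one of the same comparison (chr5:137964221-137964540). It also shares bases with the lower one of 1 dpi (chr5:137964161-137964380). Hapln2, which links matrix at nodes of Ranvier, had 1 read at 5 dpi and 0 reads both at 7 dpi and in primary neurons, against 16 in MEF, in a region upstream of its start. In one downstream of it, Hapln2 had 15 reads at 7 dpi, against 0 in MEF. Gjb1, a connexin of myelinating cells, had 0 reads at 1, 3 and 5 dpi as well as in primary neurons, against 12 in MEF. Gpr17, a receptor of maturing oligodendrocyte precursors, was higher at 3 dpi (16 reads, against 0 in MEF) and 5 dpi (12 reads, against 0 in MEF). Fa2h, an enzyme of myelin lipids, had 20 reads in primary neurons, against 0 in MEF, at least 6.22-fold higher.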

How the data were processed

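MeDIP-seq of 6 libraries, 1 per group, was used. Per the submitters' processing notes, CASAVA, Bowtie2 2.1.0 and mm10 were used. The peak caller and the test behind the lists are not named there. The deposited region tables hold read counts at 1, 3 and 5 dpi and a scaled signal at 7 dpi and in primary neurons. In the latter 1 read is worth 1.15 at 7 dpi, against 0.866 in MEF, and 0.966 in primary neurons, against 1.04 in MEF. Dividing by these gave whole reads for 100% of values up to 20 reads, within 0.1 read. The deposited log2 fold changes and p-values are the authors' own, and a G-test for equal values in both libraries returned these p-values with a median difference of at most 0.227%. The deposited peak lists give tag counts, a fold enrichment (ratio) and −log10 q-values. Folds here use the authors' values, and reads are whole reads. Group replicates do not exist, so nothing was tested between conditions. Percentages of all genes use 26216 genes matched by gene ID. Every member was given with values where listed, and of the further genes the one with the most reads per lineage, list and comparison, with its other listed regions. Functions were tested on simulated data. Members and lists were chosen with earlier results of these data known. Python 3.11.15, numpy 2.4.6, scipy 1.17.1, pandas 2.3.3 and matplotlib 3.10.9 were used.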

Additional observations from a re-analysis of the deposited data

How the results depend on the processing

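No paired analysis was possible because each group has 1 library. With p of at most 1e-05 the counts of members listed lower became 0 for oligodendrocyte genes at 1 dpi, 1 at 3 dpi and 1 for primary neurons, both Mobp, and 0 for astrocyte genes at 1, 3 and 5 dpi and in primary neurons. The members listed higher became 0 for both lists at 3 dpi, 1 astrocyte gene at 7 dpi, and 1 oligodendrocyte and 2 astrocyte genes in primary neurons. With at least 13 reads in the higher library, the lower lists held 1 oligodendrocyte gene at 3 dpi, 1 for primary neurons, and 0 astrocyte genes at 1, 3 and 5 dpi and in primary neurons. The higher lists then held 0 oligodendrocyte genes at 3 dpi and 1 astrocyte gene at 7 dpi. In primary neurons the higher list held 4 oligodendrocyte genes in place of 6, and still 4 astrocyte genes. Under these limits fewer regions remain by construction. The shares of all genes at the same limits were not computed, so these counts have no background beside them. With promoter peaks alone, 0 members had a peak in any library. A test on unscaled reads at 7 dpi and in primary neurons, older gene symbols and a peak fold of at least 5 moved no count by over 1.5 times. The largest changes were both at 7 dpi. Astrocyte genes listed higher went from 3 to 2 on unscaled reads. Oligodendrocyte genes with a peak went from 6 to 4 at a fold of at least 5. Whole reads gave folds 0.75 to 1.07 times the scaled ones in the 19 regions of 7 dpi and primary neurons. Few reads limit most of these values: apart from Mobp, Nfia and Aspa, no member region held over 16 reads.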
